A study of Homo sapiens with 2 samples.

Results

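The 10 genes described here encode the cytoplasmic and endosomal sensors of double-stranded RNA, the adaptor, kinase and transcription factor that relay their signal, interferon beta, and 3 effectors that act on double-stranded or viral RNA. They are IFIH1, DHX58, TLR3, MAVS, TBK1, IRF3, IFNB1, EIF2AK2, ADAR and ZC3HAV1. Members were chosen by gene symbol, with the ratios between these same arrays already known, so their ratios are a description and were not tested. They are read by 21 of the 54675 probe sets of the table and make up 10 of the 19775 genes that carry a symbol of their own. The study asked which genes differ in U251 cells, an established human glioma line, when they carry extra miR-31. Its 2 samples are U251 cells transfected with has-miR-31 (1 array) and U251 cells transfected with a control (1 array), both grown in DMEM with serum. The form of the transfected nucleic acid, its dose and the time to harvest are not given in the sources used here, and nothing on these arrays measured mature miR-31. Total RNA was labelled by 3' in vitro transcription and hybridised to the Affymetrix HG-U133_Plus_2 array, on which a probe set is a group of short probes that read the 3' part of a transcript.

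Double-stranded RNA in the cytoplasm is a sign of viral replication. The helicase MDA5, encoded by IFIH1, binds long duplexes and sets off the assembly of MAVS filaments on the mitochondrial surface, and TLR3 recognises duplexes inside endosomes. Both routes reach the kinase TBK1, which phosphorylates IRF3 so that it enters the nucleus and switches on IFNB1. Secreted interferon then acts through its receptor on ISRE elements in the promoters of many genes, the sensors included, so the pathway raises its own components. EIF2AK2, ADAR and ZC3HAV1 encode PKR, an RNA-editing deaminase and the zinc finger antiviral protein ZAP, which act on the RNA or on translation directly.

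Each value is a deposited linear intensity, in the array's own units. Ratios are log2(intensity + 16) in the miR-31 array minus the same in the control array, so a value above 0 means higher in the miR-31 array, and a gene was called higher or lower at 2-fold, a log2 ratio of 1 either way. A probe set was counted as dim when its mean level over both arrays, taken on the log2 scale, was below 62.7, the median of all probe sets. A gene was represented by its brightest probe set, and 11787 genes had 1 that was not dim. With 1 array per group there is no replicate spread, no p-value can be had, and the number of arrays limits the precision of every value below. As a gauge of measurement noise, 3142 genes with exactly 2 probe sets that were not dim gave a probe set SD of 0.33 on the log2 ratio, which leaves out differences between cultures. The arrays also carry probe sets for bacterial control transcripts, whose own median ratios were 0.19 (18 hybridisation control sets) and 0.55 (24 poly-A control sets). Centring on either lowers every ratio by that amount, so on the poly-A controls any ratio between 0 and 0.55 turns negative, and any between 1 and 1.55 no longer reaches 2-fold.

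By brightest probe set on the deposited scale, the sensors were the members furthest above the control and the effectors came next. The adaptor, the kinase and the transcription factor lay close to 0. Among the sensors DHX58 was dim, and the effector ZC3HAV1 at 0.37 lay little above the probe set SD of 0.33. Of the 10 members, 8 had a probe set that was not dim. Of these 8, 3 (IFIH1, TLR3 and EIF2AK2) were called higher in the miR-31 array and 0 were called lower, where 3.74% and 1.58% of all genes compared were called higher and lower. The members were picked with these ratios in view, so nothing is read from that count. TLR3 passed the level minimum only through the miR-31 array. Of the 7 members whose control intensity alone reached the minimum, 2 were called higher and 0 lower, against 2.93% and 3.15% of the genes kept in that way. At any level, 4 of the 10 members were called higher and 0 lower, against 5.99% and 5.07% of all named genes. By probe set, 7 of the 17 that were not dim were called higher and 0 lower, against 3.58% and 1.67% of all named probe sets above the minimum. Among those 7, 1555464_at of IFIH1 (57.6 in the control array) passed the minimum only through the miR-31 array. So did 206271_at (53 in the control array) and 239587_at (41.2 in the control array) of TLR3. The median log2 ratio of the 8 members, TLR3 included, was 0.55, and that of all genes compared was 0.03. Over the 7 members whose control intensity reached the minimum it was 0.37, against 0.00 for the genes kept in that way.

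**Figure D1:**
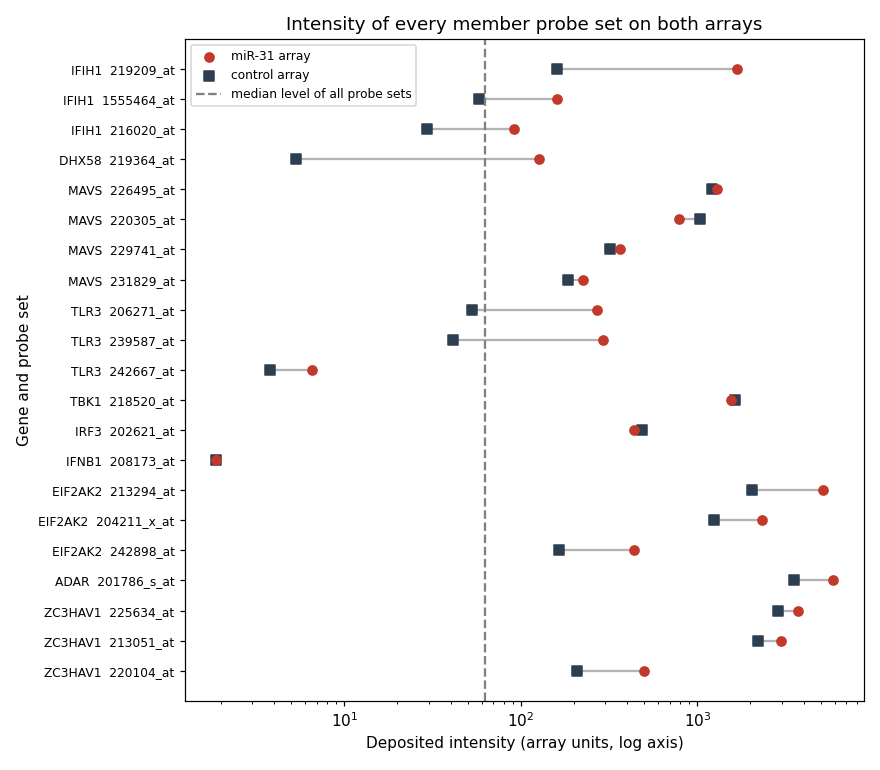
Deposited intensity (log axis) of all 21 member probe sets, with the miR-31 array as circles and the control array as squares, joined by a line. The dashed line is the median level of all probe sets, 62.7. All probe sets of IFIH1, EIF2AK2, ADAR and ZC3HAV1 lie higher in the miR-31 array, while those of TBK1, IRF3 and IFNB1 nearly coincide.

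The sequences that frame these values are those of the transfected miRNA and of 3 member promoters. The RefSeq mature strand of miR-31 (hsa-miR-31-5p, GRCh38.p14, chr9:21512158-21512178, minus strand) is shown with its seed, bases 2 to 8, in capitals. The seed is the stretch by which a miRNA mainly recognises its targets.
hsa-miR-31-5p: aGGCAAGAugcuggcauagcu

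Promoter windows of 250 bases before to 50 bases after the transcription start were matched by symbol for 8 of the 10 members in the RefSeq table (GRCh38.p14), with 3 windows for ADAR. DHX58 and IRF3 are named only. Each window was searched on both strands for the core of the interferon-stimulated response element, GAAANNGAAA, in which N is any base. The core was found in 1255 of all 35116 windows, 3.57%. Among the members it was found in the windows of IFIH1, TLR3 and EIF2AK2. It was in none of the windows of MAVS, TBK1, IFNB1, ADAR and ZC3HAV1. IFIH1, TLR3 and EIF2AK2 are also the members called higher among those not dim, but members were chosen with their ratios known. DHX58, at 2.73 but dim, had no window, and ZC3HAV1 had 1.20 on its probe set 220104_at. Nothing is therefore read from the overlap of matches and calls. The 3 windows that hold a match are printed 5' to 3' along the gene, with the matched bases in capitals. IFIH1 (chr2:162318635-162318934, minus strand) held 3 matches, of which those at bases 92 to 101 and 98 to 107 of the window overlap and lie on the opposite strand, and the third lies at bases 230 to 239.
IFIH1: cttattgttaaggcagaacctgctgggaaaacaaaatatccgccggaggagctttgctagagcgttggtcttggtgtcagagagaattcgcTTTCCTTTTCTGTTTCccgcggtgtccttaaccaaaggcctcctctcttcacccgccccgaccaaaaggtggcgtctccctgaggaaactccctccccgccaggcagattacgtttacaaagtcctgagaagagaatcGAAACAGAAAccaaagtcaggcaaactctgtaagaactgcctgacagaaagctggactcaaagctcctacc

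In TLR3 (chr4:186068906-186069205, plus strand) the match lies on the opposite strand at bases 247 to 256, and in EIF2AK2 (chr2:37156931-37157230, minus strand) on the gene's strand at bases 245 to 254. Both therefore span the annotated start.
TLR3: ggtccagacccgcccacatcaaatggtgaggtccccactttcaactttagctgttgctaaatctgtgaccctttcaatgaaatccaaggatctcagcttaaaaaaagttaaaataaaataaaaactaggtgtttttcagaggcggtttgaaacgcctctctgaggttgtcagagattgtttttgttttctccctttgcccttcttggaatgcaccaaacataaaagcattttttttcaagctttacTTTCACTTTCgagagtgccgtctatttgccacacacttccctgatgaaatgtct
EIF2AK2: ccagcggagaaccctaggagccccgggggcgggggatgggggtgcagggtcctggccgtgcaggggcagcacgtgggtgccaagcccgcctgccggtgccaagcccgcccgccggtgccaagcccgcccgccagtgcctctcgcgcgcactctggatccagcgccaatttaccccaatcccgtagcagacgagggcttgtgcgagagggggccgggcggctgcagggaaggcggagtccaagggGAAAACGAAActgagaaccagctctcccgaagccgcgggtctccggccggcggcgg

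Over the 9713 genes compared that had a window, 3.92% held the ISRE core, and over the 346 of these called higher the share was 13.9%. A match is a description of the letters in these windows and was not tested as a binding site, and the shares were not compared by a test.

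IFIH1 (Entrez gene 64135, chr2:162267074-162318684) encodes MDA5, and it had the highest ratio among the members that were not dim. Its brightest probe set, 219209_at, had an intensity of 1673 in the miR-31 array and 160.2 in the control array, a log2 ratio of 3.26, or 9.58-fold. It ranked 11 from the top among the 11787 genes compared, and when the genes were divided into 4 classes by mean level, 6 of the 2947 in its class had a ratio at least as high, itself included. The other probe sets showed the same direction by a smaller amount. Probe set 1555464_at had 161 in the miR-31 array and 57.6 in the control array (1.27), so it passed the level minimum only through the miR-31 array. Probe set 216020_at, which was dim, had 91.4 in the miR-31 array and 29.5 in the control array (1.24). The sets of the same gene thus differed by far more than the probe set SD of 0.33, and the mean of those that were not dim was 2.27.

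TLR3 (Entrez gene 7098, chr4:186069156-186088073), the endosomal receptor, was also higher in the miR-31 array on both of its probe sets that were not dim. Probe set 206271_at had 271 in the miR-31 array and 53 in the control array, a log2 ratio of 2.06. Probe set 239587_at had 291 in the miR-31 array and 41.2 in the control array, a log2 ratio of 2.42. Both control intensities lie below 62.7, so the size of the ratio depends on the pseudocount, and with a pseudocount of 64 in place of 16 it was 1.52 for 206271_at. The third probe set, 242667_at, read next to nothing on either array, with 6.57 in the miR-31 array and 3.8 in the control array. On the deposited scale TLR3 ranked 56 from the top.

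DHX58 (Entrez gene 79132, chr17:42101411-42112714) encodes LGP2, a relative of MDA5 that lacks the signalling domains and modulates its binding to RNA. Its only probe set, 219364_at, had 126 in the miR-31 array and 5.35 in the control array, a log2 ratio of 2.73, and its mean level was dim. The miR-31 value lies above the median level of all probe sets and the control value far below it. No detection call was used, so the control intensity cannot be separated from background, and the ratio ran from 1.45 with a pseudocount of 64 to 4.32 with a pseudocount of 1.

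**Figure D2:**
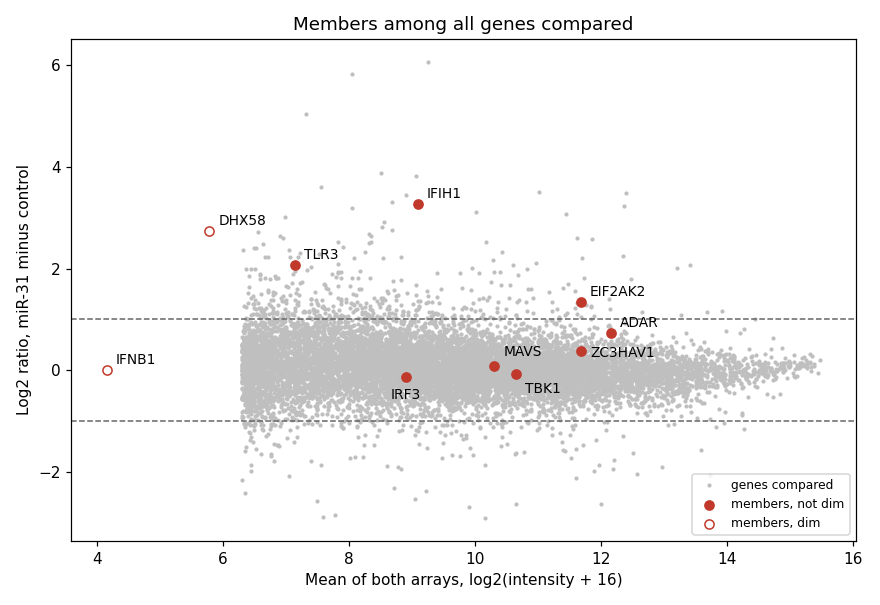
Log2 ratio, miR-31 minus control, against mean log2 level for the 11787 genes compared (grey) and the 10 members (red, open where dim). Dashed lines mark 2-fold. IFIH1 at 3.26, TLR3 at 2.06 and EIF2AK2 at 1.34 lie above the upper line, and MAVS, TBK1 and IRF3 lie within the bulk of genes.

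The relay from the sensors to the interferon gene was close to level between the arrays on the deposited scale. MAVS (Entrez gene 57506, chr20:3846834-3876118), the adaptor of MDA5, was read by 4 probe sets, none of them dim, and they lay on both sides of 0. Probe set 226495_at had 1287 in the miR-31 array and 1208 in the control array (0.09), and 220305_at had 783 in the miR-31 array and 1039 in the control array (-0.40). Of the other MAVS sets, 229741_at had 364 in the miR-31 array and 322 in the control array (0.17), and 231829_at had 224 in the miR-31 array and 184 in the control array (0.26). MAVS thus had no common direction over its probe sets, and the sign of its brightest set turned to -0.10 when ratios were centred on the hybridisation controls and to -0.46 on the poly-A controls.

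TBK1 (Entrez gene 29110, chr12:64452120-64502114), the kinase on which the routes converge, had 1547 in the miR-31 array and 1630 in the control array on its only probe set, 218520_at, a log2 ratio of -0.08. IRF3 (Entrez gene 3661, chr19:49659572-49665857), the transcription factor that TBK1 phosphorylates, had 439.5 in the miR-31 array and 485 in the control array on 202621_at, a log2 ratio of -0.14. On the deposited scale both ratios are smaller in size than the probe set SD of 0.33. Centred on the hybridisation controls, TBK1 had -0.26 and IRF3 -0.33. On the poly-A controls they had -0.63 and -0.69, where the median of all genes compared was -0.52. Phosphorylation, by which both proteins are switched on, is not read by these arrays.

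IFNB1 (Entrez gene 3456, chr9:21077104-21077942), the interferon that the pathway turns on first in many cell types, was at the bottom of the intensity range. Its only probe set, 208173_at, had 1.88 in both the miR-31 and the control array. A dim value cannot be separated from background, so a low level on either array could not be seen here. IFNB1 lies 434 kb from the MIR31 hairpin (chr9:21512115-21512185) on the same chromosome. The other interferon ligands gave no reading above the minimum either. Of 17 alpha, omega, epsilon, kappa, gamma and lambda genes with a probe set of their own, 0 were above it, and their intensities ran from 0.827 to 47.5 in the miR-31 array and from 1.42 to 50.6 in the control array. Among these dim values IFNE (1.63) and IFNA4 (1.32) lay past 2-fold above and IFNW1 (-1.65) and IFNA10 (-1.15) past 2-fold below. At any level, 5.99% of all named genes were called higher and 5.07% lower, and nothing is read from these dim ratios. The alpha genes are near-identical, so some of these sets may not be specific to a gene.

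The 3 effectors were higher in the miR-31 array to differing extents. EIF2AK2 (Entrez gene 5610, chr2:37099210-37156980) encodes PKR, which binds double-stranded RNA and halts translation by phosphorylating eIF2-alpha. Probe set 213294_at had 5176 in the miR-31 array and 2036 in the control array, a log2 ratio of 1.34, or 2.53-fold. Probe set 242898_at gave the same ratio of 1.34, from 439 in the miR-31 array and 164 in the control array. The third, 204211_x_at, whose suffix marks probes that may also match other transcripts, had 2316 in the miR-31 array and 1238 in the control array (0.89). All 3 sets were well above the level minimum on both arrays. Of the 2947 genes in the brightest of the 4 level classes, 18 had a ratio at least as high as EIF2AK2, 0.611%, itself included. Centred on the poly-A controls its ratio was 0.79, below 2-fold.

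ADAR (Entrez gene 103, chr1:154582057-154627997) encodes ADAR1, which converts adenosine to inosine in double-stranded RNA and so keeps the cell's own duplexes from being sensed. It has a longer, interferon-inducible isoform and a shorter constitutive one, which a probe set near the 3' end would not be able to tell apart. Its only probe set, 201786_s_at, had 5848 in the miR-31 array and 3508 in the control array, a log2 ratio of 0.73, or 1.66-fold. This did not reach 2-fold, although it was larger than the probe set SD, and 67 of the 2947 genes of that class (2.27%) had a ratio at least as high. It was 0.18 when centred on the poly-A controls.

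ZC3HAV1 (Entrez gene 56829, chr7:139043515-139109720) encodes ZAP, which binds CpG-rich viral RNA and directs its decay. Its probe sets fell into different ranges. The brightest, 225634_at, had 3722 in the miR-31 array and 2877 in the control array (0.37), and 213051_at had 2985 in the miR-31 array and 2206 in the control array (0.43). Probe set 220104_at had 496 in the miR-31 array and 207 in the control array, a log2 ratio of 1.20, past 2-fold. ZAP is made as isoforms with different 3' ends, and which of them each probe set reads was not determined. The ratio of the brightest set fell below 0, to -0.18, when centred on the poly-A controls. In its level class 9.4% of genes had a ratio at least as high. For the other members not yet given, the share within the class was 0.848% for TLR3, 40% for MAVS, 59.5% for TBK1 and 71.8% for IRF3. All members were chosen with their ratios known, so these shares are a description.

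**Figure D3:**
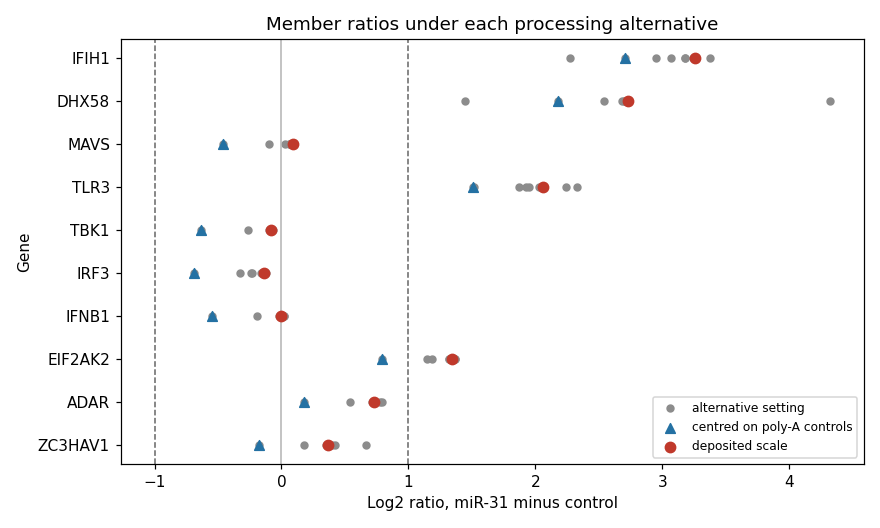
Log2 ratio, miR-31 minus control, of each member on the deposited scale (red circles), when centred on the poly-A controls (blue triangles) and under the other alternatives (grey). IFIH1, DHX58 and TLR3 stay above 2-fold in every alternative that gave them a value, and EIF2AK2 in all but the poly-A centring.

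In ratio alone, the measure of likeness that 2 arrays allow, the genes nearest to IFIH1 were IFIT1 (3.23), an interferon-induced RNA-binding protein, DNAJC15 (3.30), and MX2 (3.19), an interferon-induced GTPase. Those nearest to EIF2AK2 were RETREG1, TET1 and PKP2, each at 1.34, and those nearest to ADAR were RNF141, GBP5 and DPY19L3-DT, each at 0.73. Many genes share such moderate ratios, so the last 2 sets say little. Likeness in ratio to IFIH1, a member chosen with its ratio known, was not tested. The members, antisense transcripts and genes with systematic symbols, such as LOC, LINC, FAM, TMEM or orf names, were left out of these sets.

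Genes around the members were taken from lists written with earlier results of these arrays known. Of all genes compared, 3.74% were called higher and 1.58% lower. At those shares lists this short would hold few or no calls, so little is read from their counts. Of 17 partners and regulators of MDA5 and MAVS that were not dim, 1 was called higher and 0 lower, and the list median was 0.08, which lies below 0 when centred on the hybridisation controls (-0.11) or the poly-A controls (-0.47). The gene called higher was IFIT3, an interferon-induced protein reported to bridge MAVS and TBK1, with 7127 in the miR-31 array and 1542 in the control array, a log2 ratio of 2.20 and 2.50 on its other probe set. TRIM25, a ubiquitin ligase and cofactor of ZAP, had 1640 in the miR-31 array and 866 in the control array (0.91, and 0.13 on its other probe set). NLRX1, a mitochondrial protein reported to restrain MAVS, had 809 in the miR-31 array and 492 in the control array (0.70, and 1.48 on its other probe set).

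Of 4 further TLR3 branch genes that were not dim, 1 was called higher and 0 lower, against 3.74% and 1.58% of all genes compared. The list median was 0.12. It lies below 0 under quantile normalization (-0.24) and without the trend on level (-0.02). It is also below 0 when centred on the hybridisation controls (-0.07) or the poly-A controls (-0.44). The gene called higher was UNC93B1, the chaperone that carries TLR3 to endosomes, with 204 in the miR-31 array and 12.3 in the control array (2.96), and its other probe sets were dim. It passed the level minimum only through the miR-31 array, it was dim after quantile normalization, and its control value cannot be separated from background, so the size of its ratio depends on the pseudocount. TICAM1, which encodes TRIF, the adaptor of TLR3, had 264 in the miR-31 array and 209 in the control array (0.32). TRAF6, listed for MDA5 and MAVS too, had 358 in the miR-31 array and 511 in the control array (-0.50, and 0.25 on its other probe set). It is past 2-fold lower when centred on the poly-A controls, as are 1279 of all 11787 genes compared. Among the dim genes of the TLR3 branch CD14 had 1.75 and RIPK3 -1.15. At any level, 5.99% of all named genes were called higher and 5.07% lower.

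None of 9 genes of the TBK1 complex and partners of IRF3 was called higher or lower, against 3.74% and 1.58% of all genes compared. The median was 0.24. The median lies below 0 (-0.31) when centred on the poly-A controls. RBCK1 had 0.40, but its 3 probe sets ran from -0.48 to 0.56, and the 6 sets of AZI2, an adaptor of TBK1 with 0.33 on its brightest, ran from -0.38 to 1.14. IRF5, an interferon-regulatory factor, had 0.39. IKBKE, the inducible relative of TBK1, had 294 in the miR-31 array and 239 in the control array (0.28, and 0.82 on its other probe set). TBKBP1, an adaptor of TBK1, was dim at 53.9 in the miR-31 array and 8.76 in the control array, past 2-fold higher. IRF7 of the same list was also dim, at 16.7 in the miR-31 array and 42.7 in the control array (-0.84). Of 8 genes of the NF-kB and AP-1 arm that acts with IRF3 on the IFNB1 promoter, 0 were called higher and 1 lower. The gene called lower was HMGA1, the architectural protein of that complex. It had 1262 in the miR-31 array and 2550 in the control array (-1.01, and -0.16 on its other probe set). JUN, of the AP-1 arm, had 5808 in the miR-31 array and 8699 in the control array (-0.58), and its 4 sets ran from -0.58 to -0.33. It is past 2-fold lower when centred on the poly-A controls, as are 1279 of all 11787 genes compared. The NF-kB subunits RELA and NFKB1 had -0.01 and 0.09, and the list median was -0.06.

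The other genes listed around the effectors lay within 2-fold on the deposited scale where their brightest probe set was not dim. Of 13 other eIF2-alpha kinases, regulators of PKR and outputs of eIF2-alpha phosphorylation, 0 were called higher or lower, with a median of -0.27. Over all genes compared 3.74% were called higher and 1.58% lower, so counts of 0 in lists this short say little. TARBP2, an inhibitor of PKR, had -0.55, and DDIT3, a transcription factor downstream of eIF2-alpha phosphorylation, had 753 in the miR-31 array and 1059 in the control array (-0.48). Both are past 2-fold lower when centred on the poly-A controls, as is EIF2S1, which encodes eIF2-alpha itself (-0.45 on the deposited scale). With that centring 1279 of all 11787 genes compared were called lower, so little is read from these calls. Of 10 other double-stranded RNA binding and editing proteins, 0 were called either way, with a median of -0.14. ILF2, an RNA-binding protein, had -0.34, and ZBP1, which binds left-handed nucleic acids, was dim at -1.05. ADARB1, the other active editing enzyme, had 567 in the miR-31 array and 711 in the control array (-0.32), opposite in sign to ADAR. Of 10 cofactors and relatives of ZAP, 0 were called either way, and the median of 0.06 turned to -0.13 with hybridisation controls as the centre and to -0.49 with poly-A controls. XRN1, an exonuclease, had 0.43 on its brightest probe set, and its 3 sets that were not dim ran from 0.28 to 1.23. The extremes were TRIM25 at 0.91 and the exosome subunit EXOSC5 at -0.90, the last of which is past 2-fold lower when centred on either set of controls. Centring on the hybridisation controls gave 367 genes called lower among all genes compared, and centring on the poly-A controls gave 1279.

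**Figure D4:**
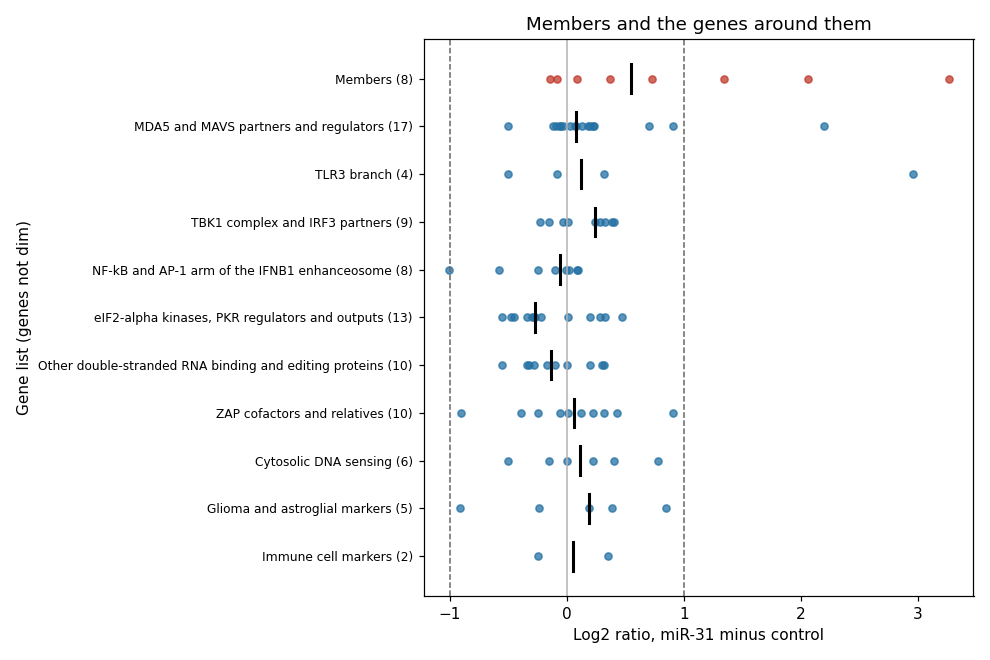
Log2 ratio, miR-31 minus control, of the 8 members that were not dim (red) and of the listed genes around them (blue), each point a gene and each black bar the list median. Dashed lines mark 2-fold. Among the listed genes IFIT3 at 2.20 and UNC93B1 at 2.96 lie above the upper line and HMGA1 at -1.01 just below the lower one.

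Of 7 glioma and astroglial markers, 5 were not dim, and they lay on both sides of 0. GFAP had 3624 in the miR-31 array and 2007 in the control array (0.85, and 1.03 on its other probe set that was not dim). NES, an intermediate filament of neural progenitors, had 5877 in the miR-31 array and 11039 in the control array (-0.91, and 0.03 on its other probe set). Its brightest set is past 2-fold lower with either set of controls as the centre. So are 367 of all 11787 genes compared with the hybridisation controls and 1279 with the poly-A controls. VIM had 34112 in the miR-31 array and 29991 in the control array (0.19, and 0.68 on its other probe set). SOX2 had 17486 in the miR-31 array and 13333 in the control array (0.39), and its 4 sets ran from -0.48 to 0.60. CD44 had 20146 in the miR-31 array and 23866 in the control array (-0.24), and its 10 sets that were not dim ran from -0.69 to 0.28. S100B (0.30) and OLIG2 (1.12) were dim. Of 12 immune cell markers, 10 were dim, and the others were CSF1R, with 101 in the miR-31 array and 75.9 in the control array (0.35), and ITGAM, with 61.4 in the miR-31 array and 76.2 in the control array (-0.25). The summed intensities of the 12 were 400.1 in the miR-31 array and 323 in the control array. Among the dim markers CD14 (1.75), CD3E (1.54) and NKG7 (1.03) lay past 2-fold above and LYZ (-1.07) past 2-fold below, while PTPRC, which encodes the leukocyte antigen CD45, had 17 in the miR-31 array and 30.1 in the control array. Over all named genes at any level, 5.99% were called higher and 5.07% lower. The part of the cells that these markers stand for in the ratios of the sensors was not tested. With 1 array per group, an effect of miR-31 and any other difference between these 2 cultures cannot be told apart.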

How the data were processed

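Gene expression was measured on 1 array of U251 cells transfected with miR-31 and 1 of U251 cells transfected with a control. The values are linear intensities in 1 table that the authors deposited, made with software not given in the sources used here. Without the 2 percent of probe sets at either end, the arrays had the same mean of 499.9, so the values had been scaled. Intensities ran from 0.109 to 48627 in the miR-31 array and from 0.124 to 44755 in the control array.

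Of 54675 probe sets, 41097 carry 1 gene symbol in the platform annotation, 1801 several and 11777 none here. Only the first were used, and 62 control probe sets were left out. Ratios, levels and calls were computed as stated above, with no test. The members and gene lists were chosen with earlier results of these data known. Every member is named with all its probe sets. From each list, genes past 2-fold were named, otherwise the 2 with the largest ratios in size, and any further gene was picked for its role or with its values in view. Not every gene of the pathway is reported here. The calculation was tested on simulated data. Alternatives were 12 listed in advance and 1 added (a filter on the control array alone). Python 3.11.15, numpy 2.4.6, pandas 2.3.3, statsmodels 0.14.6 and matplotlib 3.10.9 were used.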

Additional observations from a re-analysis of the deposited data

How the results depend on the processing

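No paired analysis was possible because the groups hold a lone array each, and leaving out an array was not possible for the same reason. Of the 8 members not dim, 3 were called higher, and the number was 2 to 4 over the 13 alternatives, while 0 were called lower in each. It was 2 with the stricter filter, at 4 times the median level, which leaves out TLR3 by construction, with the filter on the control array alone, and with centring on the poly-A controls, where EIF2AK2 had 0.79. It was 4 at 1.5-fold, through ADAR, and without a filter, through DHX58. Centring on the poly-A controls, which shifts every gene by the same 0.55, gave a median over the members of 0.00 against a median of -0.52 for all genes, and centring on the hybridisation controls shifts every gene by 0.19. The number of all genes called higher, 441, was 124 and 266 under these centrings, 275 with a pseudocount of 64, 232 with the stricter filter, 1184 when unfiltered and 1376 at 1.5-fold. The number called lower, 186, was 1279 and 367 under the centrings, 122, 116, 1002 and 793 under the same other settings, and 374 with the filter on the control array alone. Dim control values limit the size of the ratios of DHX58 and TLR3.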

Other observations

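Sensing of cytosolic DNA reaches the same kinase TBK1 through STING1. The genes listed for it that were not dim are CGAS, IFI16, the adaptor STING1 and the nuclease subunits RNASEH2A, RNASEH2B and RNASEH2C. On their brightest probe sets 0 were called higher or lower, against 3.74% and 1.58% of all genes compared. Of these 6 genes, 4 lay above 0, and the list median of 0.11 lies below 0 when centred on the hybridisation controls (-0.08) or the poly-A controls (-0.44). IFI16, a DNA-binding protein, had 6856 in the miR-31 array and 3997 in the control array (0.78), with its 3 probe sets between 0.78 and 1.45. STING1, the adaptor, had 420.4 in the miR-31 array and 358 in the control array (0.22, and 1.07 on its other probe set). CGAS, the enzyme that makes the second messenger for STING1, had 134 in the miR-31 array and 151 in the control array (-0.15). RNASEH2A, a subunit of the nuclease that removes RNA from DNA hybrids, had -0.50, which is past 2-fold lower when centred on the poly-A controls. So are 1279 of all 11787 genes compared. ZBP1 was dim, with 8.95 in the miR-31 array and 35.7 in the control array (-1.05), and so was AIM2, with 16.7 in the miR-31 array and 23 in the control array.

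Members with several probe sets did not all give 1 answer. Over the sets that were not dim, the ratios of IFIH1 lay at 3.26 and 1.27, those of ZC3HAV1 between 0.37 and 1.20 and those of MAVS between -0.40 and 0.26, while those of TLR3 (2.06 and 2.42) lay close together. Which exons or isoforms each set reads was not determined here.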
